A study of Mus musculus with 83 samples.

Results

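The mouse hairpins Mir320, Mir484, Mir877, Mir702 and Mir1224 are miRNA genes whose precursors are known to form without the Microprocessor. They were chosen by symbol, and they made up 5 of the 1577 miRNA features and of the 32101 features in the deposited table. The question put to them here was how much of each hairpin's small RNA was bound to AGO2 relative to its level in total RNA, and whether either level moved after loss of Dnmt1, the maintenance DNA methyltransferase. The study deleted Dnmt1 in mouse embryonic stem cells (ESCs) that carry Dnmt1 loxP/loxP alleles and an inducible Cre. Control cells and Dnmt1 KO cells were sampled on days 1, 3, 6, 9, 11 and 25 of the time course. Small RNA of 20 to 24 nt was sequenced in 3 control and 3 KO libraries a day, 36 in all. RNA bound to AGO2, a slicing Argonaute, was sequenced in 4 control and 4 KO libraries. Per the study's methods Cre was induced with 4OHT, the ESCs grew in serum and LIF with or without feeder cells, and the immunoprecipitation was made on day 9. The methods do not say whether control cells received 4OHT, so effects of 4OHT or Cre cannot be told apart from those of Dnmt1 loss. The strain is labelled E14, and the methods describe the floxed ESCs as C57BL/6. The labels do not say whether same-group libraries came from separate cultures, so p-values measure the spread between these libraries, and the 4 AGO2 libraries of a genotype may come from 2 biological replicates. There were also 1 library per genotype titled "none" and 4 libraries of primordial germ cells, sorted as Oct4-GFP+ cells from male and female C57BL/6J embryos of E13.5 or E14.5, that is the embryonic day.

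A canonical miRNA is cut out of a long primary transcript in the nucleus by the Microprocessor, the complex of the nuclease Drosha and its partner Dgcr8, exported by Xpo5, cut again by Dicer1, and loaded into an Argonaute protein. Mir320 and Mir484 are transcribed directly as short hairpins, whose capped ends need no Drosha cut and which can leave the nucleus through Xpo1. Mirtrons, such as Mir877 and Mir1224, are short introns that fold into a hairpin once the spliceosome has released them and the debranching enzyme Dbr1 has opened the lariat. All of these hairpins still need Dicer1.

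The mature sequences are shown because the seed of a miRNA, bases 2 to 8, guides its pairing with targets. They were copied from RefSeq (GRCm38.p6), which had entries for 4 of the 5 hairpins, and the seed is in capitals.
miR-484: uCAGGCUCaguccccucccgau
miR-877-5p: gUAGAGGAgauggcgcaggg
miR-877-3p: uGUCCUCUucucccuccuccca
miR-702-5p: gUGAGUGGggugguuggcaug
miR-702-3p: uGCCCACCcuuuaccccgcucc
miR-1224-5p: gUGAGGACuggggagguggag
miR-1224-3p: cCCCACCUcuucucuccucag
No seed was shared among these hairpins. Of the 1738 mature miRNAs in the same RefSeq table, only miR-3102-5p shared one of these seeds, that of miR-702-5p. C and U made up 90.9% of miR-877-3p, 85.7% of miR-1224-3p and 81.8% of miR-702-3p, against 19.0% to 33.3% of the opposite arms. These 3' arms lie at the end of an intron, where a pyrimidine run precedes the splice site.

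The hairpins of the intronic members are shown because their ends carry the splice sites. The first and last intron bases that lie in the hairpin are in capitals.
Mir877: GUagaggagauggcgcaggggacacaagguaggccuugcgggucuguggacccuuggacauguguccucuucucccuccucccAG
Mir1224: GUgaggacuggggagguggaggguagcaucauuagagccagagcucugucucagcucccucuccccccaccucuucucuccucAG
Mir702: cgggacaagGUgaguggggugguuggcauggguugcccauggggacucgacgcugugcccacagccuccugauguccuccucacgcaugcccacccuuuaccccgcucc
These sequences were identical to the genome of the files' build, NCBIM37, at the deposited positions. Mir877 lay at chr17:36097675-36097759 on the minus strand and was base for base an intron of 85 bases of Abcf1, an ATP-binding cassette protein of translation. Mir1224 lay at chr16:20604525-20604609 on the plus strand and was likewise exactly an intron of 85 bases, of Vwa5b2. Mir702 lay at chr5:137467303-137467411 on the plus strand, beginning 9 bases before an intron of 102 bases of Plod3, a collagen lysyl hydroxylase, and ending 2 bases before the intron did. Both other members overlapped no exon of another gene. Mir320 lay at chr14:70843317-70843398 on the plus strand, 39 bases from the start of Polr3d, a subunit gene of RNA polymerase III on the opposite strand. Mir484 lay at chr16:14159719-14159785 on the plus strand, 352 bases from the start of 4921513D23Rik on the opposite strand. Both therefore stood alone beside a divergent gene, and the 3 others inside a host on the same strand.

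The libraries differed in depth and in the miRNAs that mark cell types. Total RNA libraries held 521066 to 6239008 reads, and those of day 25 no more than 815523. The AGO2 libraries held 11497724 to 25422978 reads in control cells and 1152390 to 11520126 in KO cells, and miRNA features took 97.9% to 99.1% of them against 52.9% to 61.5% of total RNA. The 12 ESC miRNAs of the Mir290 and Mir302 clusters were detected in every time course and AGO2 group, with summed levels of 110780 to 209785 RPM (reads per 1000000 library reads) in total RNA. The 5 fibroblast miRNA features, a sign of feeder cells, summed to 6132 to 22910 RPM on days 1 to 11, to 954 to 1292 RPM on day 25 and to 1336 to 4367 RPM in the AGO2 libraries. One of them, Mir199a-1, was at 0 in each of these libraries, and Mir199a-2 was also at 0 in control cells on day 25. The day 9 references therefore held more of the fibroblast miRNAs than the AGO2 libraries set against them. Fragments of Dnmt1 itself did not pass the test on any day, with log2 differences from -0.47 to 0.50. The table does not tell the deleted part of Dnmt1 from the rest, so these fragments do not check the genotype, which rests on the titles.

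In total RNA Mir320 and Mir484 stood above Mir877, which stood above Mir702 and then Mir1224, in the means of every group. Per kilobase of hairpin, the median over the 36 libraries was 5350 RPKM (RPM per 1000 bases) for Mir484, 4192 for Mir320, 402 for Mir877, 69.2 for Mir702 and 24.8 for Mir1224. Mir320 and Mir484 were neighbours whose ranges overlapped, from 224 to 472 RPM for Mir320 and from 228 to 626 RPM for Mir484. Mir877 ranged from 23.5 to 75.3 RPM and Mir702 from 1.61 to 13.0 RPM. Mir702 rested on 1 to 51 reads a library. Mir1224 rested on 0 to 16 reads a library and passed no filter on low values, so 4 of the 5 members were tested, among 2582 features that reached 10 RPM in 3 or more libraries.

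**Figure D1:**
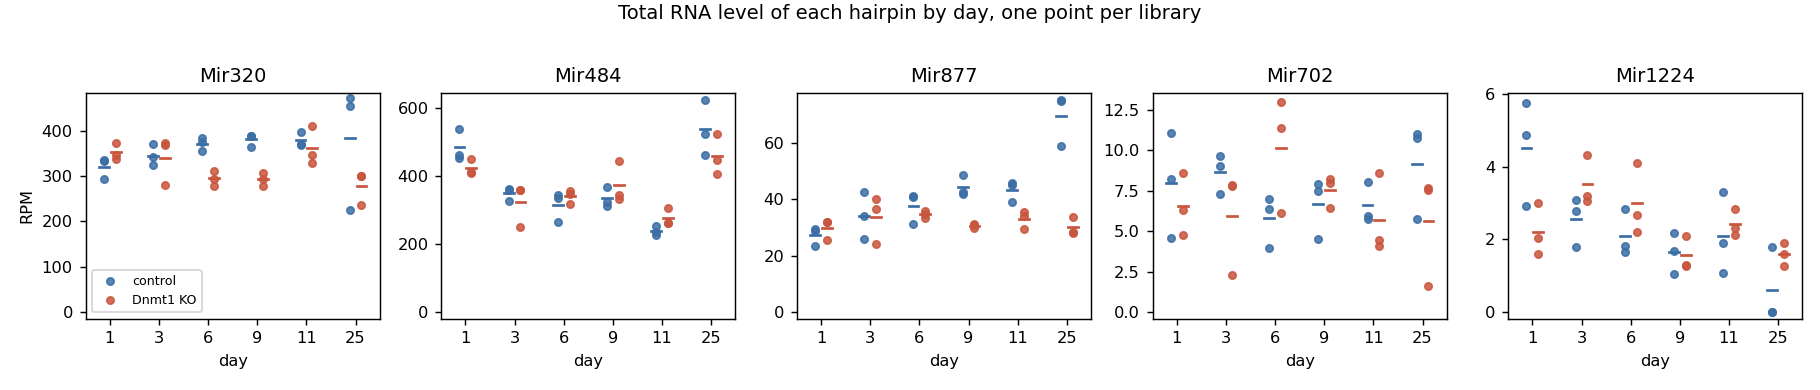
Level of each hairpin in total RNA, in RPM, by day of the time course, with 1 point per library, 3 libraries a group and a line at the group mean (blue control, red Dnmt1 KO). On day 25 the 3 control libraries of Mir877 sat between 58.9 and 75.3 RPM and the 3 KO libraries between 28.2 and 33.8 RPM, while Mir484 was lowest on day 11 in both genotypes.

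Loss of Dnmt1 moved few of these hairpins in total RNA. The clearest difference was a lower Mir877 on day 25, and no tested member was called on days 1, 3, 9 or 11. Mir877 stood at 75.3, 74.8 and 58.9 RPM in the day 25 control libraries and at 33.8, 28.2 and 28.4 RPM in the KO libraries. All 3 KO libraries lay below all 3 control libraries, in a comparison where 30.8% of all features had groups that did not overlap. The means were 69.7 ± 9.36 RPM in control cells and 30.1 ± 3.15 RPM in KO cells (SD, n = 3 each), so that KO cells held 43.2% of the control level. The log2 difference was -1.07 with an SE of 0.18 (limma across all features, adjusted p = 6.98e-06). As these are bulk samples, fewer cells with the miRNA and less of it per cell cannot be told apart.

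On day 25, 1 of the 4 tested members was called, against 35% of all features and 69.8% of miRNA features. The median of the miRNA features on that day was -0.20, and Mir877 ranked 252 of 291 from the highest. The ESC miRNAs moved the same way, with 9 of 12 lower, 0 higher and a median of -0.55, and of 4 tested fibroblast miRNAs 3 were higher and 1 lower. Their part in the Mir877 difference was not tested. The day 25 difference in Mir877 passed the test under each of the 6 other settings, from -1.18 to -1.05, and without any 1 of its 6 libraries, from -1.17 to -1.03.

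Before day 25 the levels of Mir877 in KO and control cells lay closer. On day 9 it was at 42.6, 48.7 and 42.0 RPM in control libraries and at 31.0, 29.9 and 31.3 RPM in KO libraries. These libraries did not overlap, as held for 44.2% of all features, yet the log2 difference of -0.40 ± 0.18 (SE) missed the threshold (limma, adjusted p = 0.121). It passed with library totals as the only scaling, at -0.51 (adjusted p = 0.0315), and with limma's voom weights, at -0.41 (adjusted p = 0.0166). Averaged over the 6 days, Mir877 was lower by 0.32 on the log2 scale (SE 0.07, adjusted p = 0.000538), the only one of 4 members called in a contrast that called 26.7% of all features and 71.5% of miRNA features. Without day 25, an average added after seeing the data, the difference was -0.17 and was not called (adjusted p = 0.107), so the call rested on day 25.

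Mir320 was lower on day 6. Its control libraries held 383, 375 and 355 RPM and its KO libraries 294, 279 and 312 RPM, with no overlap, as was the case for 44.9% of all features. The log2 difference was -0.44 ± 0.16 (SE, adjusted p = 0.0403), and Mir320 was the 1 member called where 23% of all features and 57% of miRNA features were. The call was lost with library totals alone, at -0.33 (adjusted p = 0.121), with a pseudocount of 0.1 (adjusted p = 0.0544), without the filter (adjusted p = 0.288), in the R1-suffixed libraries, 30 shallower libraries of days 1 to 11 whose titles end in R1 (adjusted p = 0.206), and without either of KO replicates 1 and 2 or either of control replicates 1 and 2, with adjusted p up to 0.187. The KO libraries held more fibroblast miRNA that day, 11242 to 12515 RPM against 6132 to 7144 RPM, and its part in the difference was not tested. On day 9 the Mir320 libraries again did not overlap, at 365 to 389 RPM in control and 279 to 307 RPM in KO cells, with a log2 difference of -0.26 that was not called (adjusted p = 0.295). On day 25 its control libraries held 472, 455 and 224 RPM, so that replicate 3 stood below the others, and without that library the log2 difference moved from -0.28 (adjusted p = 0.171) to -0.62 and was called (adjusted p = 0.000108).

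Mir484 and Mir702 were not called on any single day. The log2 differences of Mir484 ran from -0.28 on day 1 to 0.29 on day 11. Its effect on day 11 exceeded that on day 1 by 0.57 ± 0.19 (SE), just past the threshold (adjusted p = 0.0496), where 9.02% of all features and 30.9% of miRNA features were called. On day 1 Mir484 was at 463, 537 and 454 RPM in control and 413, 452 and 409 RPM in KO cells, and on day 11 at 235, 228 and 255 RPM in control and 305, 263 and 262 RPM in KO cells. The KO libraries were thus the lower ones on day 1 and the higher ones on day 11, and on neither day did the groups overlap, as for 20.3% and 36.4% of all features. This call was lost with library totals alone, at 0.40 (adjusted p = 0.195), with the replicate number as a block (adjusted p = 0.055), and in 9 of the 12 fits without a library of those days. For Mir702 the differences ran from -0.66 to 0.60, each with an SE of 0.39, which at 1 to 51 reads a library is a wide interval around 0.

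On each of days 1, 3, 9 and 11, then, 0 of 4 members were called by limma, where 3.8%, 6.24%, 18.4% and 8.64% of all features and 4.81%, 27.5%, 54.6% and 35.7% of miRNA features were. The number with an unadjusted p under 0.05 was 1, 0, 1 and 1, and voom called 0, 0, 1 and 0.

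**Figure D2:**
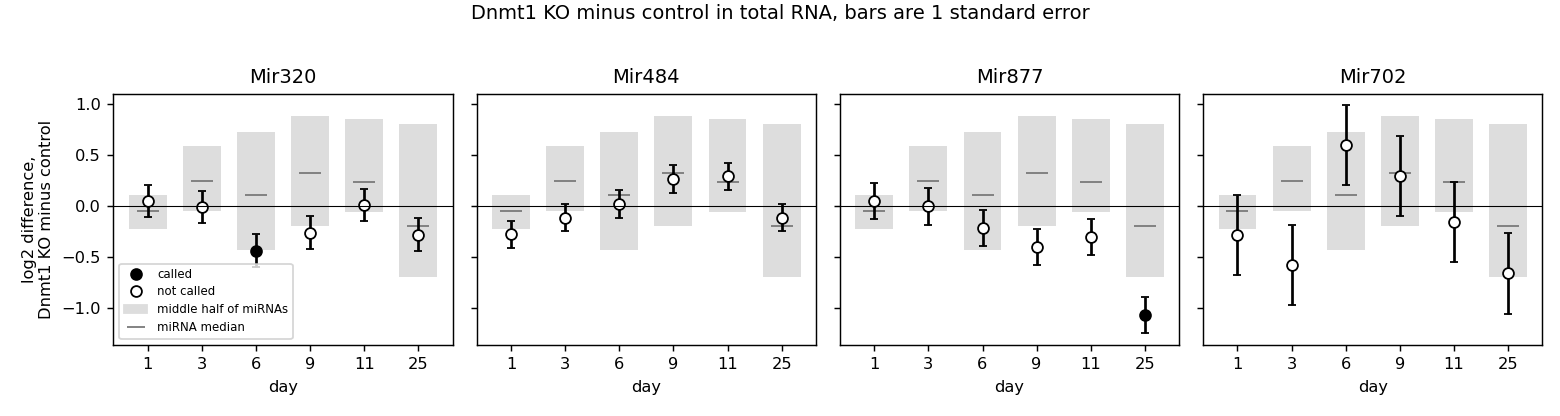
Log2 difference between Dnmt1 KO and control in total RNA by day for the 4 tested hairpins, with bars of 1 SE. Filled points have an adjusted p under 0.05, grey boxes span the lower to the upper quartile of the 291 tested miRNA features and the grey dash is their median. Filled points are Mir320 on day 6, at -0.44, and Mir877 on day 25, at -1.07.

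Within control cells Mir877 rose to day 11 and to day 25, and Mir484 fell to day 11 and was back near its day 1 level on day 25. Libraries of 1 day may share a batch, so time in culture and batch cannot be told apart in these changes. Mir877 rose from 29.6, 23.5 and 28.7 RPM on day 1 to 45.0, 45.8 and 39.1 RPM on day 11, a log2 change of 0.64 ± 0.18 (SE, adjusted p = 0.0039). By day 25 it had risen by 1.19 ± 0.18 (SE, adjusted p = 3.78e-07), and in both comparisons each later library lay above each day 1 library, where 47.9% and 48.4% of all features had groups that did not overlap. In KO cells its group means stayed between 30.0 and 34.7 RPM on all 6 days. Among miRNA features, Mir877 ranked 4 of 291 in the control change to day 25, where the miRNA median was -0.57.

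Mir484 fell in control cells from 485 ± 46.0 RPM on day 1 to 239 ± 14.0 RPM on day 11 (SD, n = 3 each), that is to 49.3%. The log2 change was -1.03 ± 0.13 (SE, adjusted p = 4.75e-08). On day 25 it was back at 538 ± 82.4 RPM, with a log2 change from day 1 of 0.01. Thus 2 of 4 members were called on day 11 against day 1, 1 in each direction, where 34.9% of all features and 49.5% of miRNA features were, and 1 of 4 on day 25, where 50.9% and 68.7% were. Mir320 and Mir702 were not called in either. Without control replicate 3 of day 25 Mir320 was higher there by 0.41 (adjusted p = 0.00508), and in the R1-suffixed libraries Mir702 was higher on day 11 by 2.12 (adjusted p = 0.0103), against -0.19 here. Over the same interval to day 25 the 4 tested fibroblast miRNAs were all lower, with a median of -3.71, and of the 12 ESC miRNAs 7 were higher and 1 lower, with a median of 0.44. The part of either list in these changes was not tested. Both day 11 calls and the Mir877 call on day 25 passed under each other setting run and without any 1 library, though the day 11 change of Mir877 was 1.67 in the R1-suffixed libraries.

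AGO2-bound RNA held more of the 4 tested members than day 9 total RNA did, in both genotypes. No input library of the pull-down is labelled, so the day 9 libraries are not a matched input. Binding to AGO2 and library batch therefore cannot be told apart in these values. Mir877 was at 183, 216, 170 and 365 RPM in the control AGO2 libraries against 42.0 to 48.7 RPM in total RNA, and at 145, 275, 390 and 355 RPM against 29.9 to 31.3 RPM in KO cells. The AGO2 means were 5.25-fold the total RNA mean in control and 9.47-fold in KO cells. Even the lowest AGO2 library was well above the highest total RNA library. Mir484 was at 1329, 1613, 1126 and 1046 RPM in control AGO2 libraries against 312 to 369 RPM, 3.81-fold, and at 2893, 2792, 2001 and 1454 RPM in KO libraries against 334 to 444 RPM, 6.11-fold.

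Mir320 and Mir702 were higher by less. Mir320 stood at 694, 505, 675 and 646 RPM in control AGO2 libraries, 1.65-fold its total, and at 939, 825, 531 and 777 RPM in KO libraries, 2.62-fold. Mir702 stood at 12.7, 12.4, 14.0 and 16.5 RPM, 2.09-fold, and at 41.7, 29.6, 26.4 and 21.5 RPM, 3.93-fold. For all 4 members, each AGO2 library lay above each day 9 total RNA library of its genotype, in comparisons where 92.1% of all features in control and 89.8% in KO cells did not overlap.

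**Figure D3:**
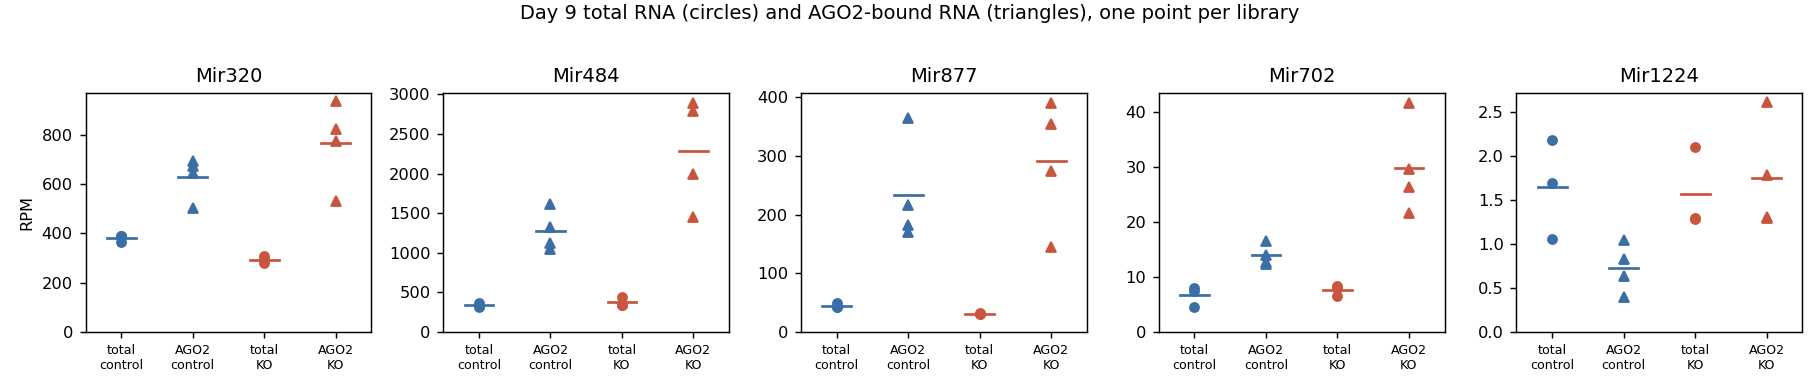
Level of each hairpin in RPM in day 9 total RNA (circles, n = 3 a genotype) and in AGO2-bound RNA (triangles, n = 4 a genotype), with a line at each mean (blue control, red Dnmt1 KO). Mir320, Mir484, Mir877 and Mir702 were higher in each AGO2 library than in each total RNA library of that genotype, and Mir1224 was not.

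On the log2 scale, the control differences between AGO2 and total RNA were 2.30 ± 0.32 for Mir877, 1.91 ± 0.24 for Mir484, 0.98 ± 0.23 for Mir702 and 0.71 ± 0.20 for Mir320 (SE). All 4 members were called higher (limma, adjusted p = 5.59e-06, 1.7e-06, 0.000945 and 0.00299), in a comparison that called 90.2% of all features and 68.8% of miRNA features. Mir702 met the filter of 10 RPM only through the AGO2 libraries, with at most 7.94 RPM in day 9 total RNA of control and 8.25 RPM of KO cells. Its calls in both genotypes are thus not independent of the filter, which left out Mir1224, low in both kinds of RNA. Of all features 10.7% were called higher and 79.5% lower, and of miRNA features 32.2% higher and 36.6% lower. The median over all features was -3.44 and that over the 292 miRNA features was -0.01. Mir877 ranked 7 and Mir484 15 of those 292 from the highest, Mir702 56 and Mir320 73. In KO cells the differences were 3.11, 2.57, 1.81 and 1.36 in the same order, all called (highest adjusted p = 8.62e-06), where 89.8% of all features and 67.1% of miRNA features were. Called higher in KO cells were 15% of all features and 47.9% of miRNA features, and called lower 74.8% and 19.2%. The miRNA median there was 0.62, and the ranks were 5, 11, 36 and 72. The mirtron Mir877 and the capped hairpin Mir484 were thus both near the top of the miRNA features, and stood above the miRNA median by 2.49 and 1.95 in KO cells and by 2.31 and 1.92 in control cells. The 4 tested fibroblast miRNAs were all lower, with medians of -3.41 in control and -3.57 in KO cells. Of the 12 ESC miRNAs, 4 were higher and 1 lower in control cells (median 0.20), and 8 and 0 in KO cells (median 1.16). The part of either list in the ranks and medians was not tested.

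These values depend on what the AGO2 libraries are set against. With trimmed-mean scaling, which moved the median of all features in control cells from -3.44 to -2.43 and that of miRNA features to 1.65, the control differences were 4.04 for Mir877, 3.67 for Mir484, 2.57 for Mir702 and 2.47 for Mir320. Scaled to the reads of miRNA features alone, the control differences were 1.55 for Mir877 and 1.15 for Mir484, both called, but 0.29 for Mir702 (adjusted p = 0.229) and -0.051 for Mir320 (adjusted p = 0.809), neither called. In KO cells all 4 remained called on that scale, from 0.64 to 2.40. Against total RNA of day 25, a reference added after seeing the data because its fibroblast miRNA level was nearest that of the AGO2 libraries, Mir877 was higher by 1.67 and Mir484 by 1.24 in control cells, and Mir702 by 0.59 was not called (adjusted p = 0.151). All 4 were called against day 25 in KO cells, from 1.44 for Mir320 to 3.14 for Mir877. Mir877 and Mir484 were called in both genotypes under every one of the 9 other settings and without any 1 library.

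**Figure D4:**
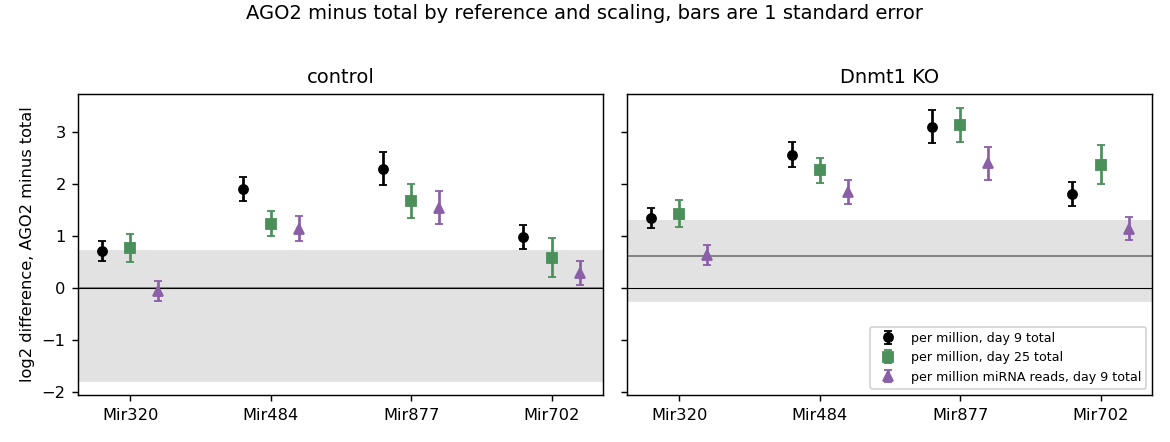
Log2 difference between AGO2-bound and total RNA for the 4 tested hairpins in control (left) and Dnmt1 KO cells (right), with bars of 1 SE, for RPM against day 9 total (black), against day 25 total (green) and, scaled to miRNA reads, against day 9 total (purple). The grey band spans the lower to the upper quartile of the 292 miRNA features on the black scale and the grey line is their median, -0.01 in control and 0.62 in KO cells. The points of Mir484 and Mir877 in control cells all lie at 1.15 or more, above the band, which applies to the black points only.

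The rise over total RNA was larger in KO than in control cells by 0.64 to 0.83 on the log2 scale, but 0 of 4 members were called for that difference (limma, adjusted p = 0.123 to 0.256), where 8.31% of all features and 20.5% of miRNA features were called higher. With trimmed-mean scaling these differences were 0.07 to 0.28. Against total RNA of all 6 days Mir484 was called at 0.81 (adjusted p = 0.000749) and Mir702 at 1.17 (adjusted p = 0.0166), and against that of day 25 Mir702 was called at 1.78 (adjusted p = 0.0434). Without KO AGO2 replicate 3, Mir320 was called at 0.81 (adjusted p = 0.0279). At an unadjusted p under 0.05 there were 2, Mir320 and Mir702, and voom called 0. The median over miRNA features was 0.49 in the same direction. Depth and the fibroblast miRNAs moved with genotype here, as the KO AGO2 libraries were mostly the shallower ones and held 3698 to 4367 RPM of fibroblast miRNA against 1336 to 1831 RPM in control AGO2 libraries. Their part in the difference was not tested.

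Between the AGO2 libraries of KO and control cells, Mir702 was higher in KO by 0.77 ± 0.24 (SE, adjusted p = 0.0356) and was the 1 of 4 members called, where 36.4% of all 456 features and 44.7% of the 264 miRNA features tested were. Its 4 KO libraries all lay above its 4 control libraries, and 37.5% of all features did not overlap. Mir484 was higher by 0.55 ± 0.23 (SE), short of the threshold (adjusted p = 0.0918). Same-numbered AGO2 libraries deviated together, and with the replicate number as a block the calls changed places, Mir702 at adjusted p = 0.0664 and Mir484 at adjusted p = 0.0339. Mir484 was also called without KO replicate 4, at 0.60 (adjusted p = 0.0277). Mir320 and Mir877 differed by 0.01 and 0.03, with SEs of 0.23 and 0.37. The call for Mir702 was also lost with median-ratio factors (adjusted p = 0.0583), with voom (adjusted p = 0.0622), without the filter (adjusted p = 0.659), when replicates were averaged in pairs (adjusted p = 0.322) and in 6 of the 8 fits that left out a library, all but those without control replicate 4 or KO replicate 4. It had 46 to 248 reads in the KO libraries.

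Mir1224 was at the edge of detection. It had 6, 11 and 5 reads in the day 1 control libraries and 1, 0 and 0 in those of day 25, where a count of 3 reads is 3.68 to 5.76 RPM. The rate on day 25 was 0.125 of that on day 1 (exact binomial 95% interval 0.0030 to 0.771, counting error only). Fitted without the filter, the difference passed the test (adjusted p = 0.000123), but its size depends on the pseudocount. The day 1 control mean, 4.51 RPM, was the highest of the time course groups, against 2.21 RPM in KO cells that day. Mir1224 was at 0 in all 3 R1-suffixed libraries of day 1 control cells. In AGO2-bound RNA it was at 0.39 to 1.04 RPM in control libraries, on 10 to 18 reads each, and at 1.29 to 2.60 RPM in KO libraries, on 2 to 15 reads. Against day 9 total RNA the control mean was 44.0% as high, and fitted without the filter the log2 difference was -0.61 (adjusted p = 0.0166) in control and 0.09 (adjusted p = 0.733) in KO cells. Of the members that are exactly an intron, Mir877 was thus higher in AGO2 RNA and Mir1224 was not.

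Most small RNA of the host genes came from the hairpins. Over the 36 total RNA libraries Mir877 made up 88.6% of the 4585 reads of Abcf1, Mir1224 88.0% of the 291 of Vwa5b2 and Mir702 79.4% of the 1027 of Plod3. Over the 8 AGO2 libraries these shares were 99.7%, 95.2% and 99.3%. In these pooled reads the host outside the hairpin took a smaller share of AGO2-bound than of total RNA. For Vwa5b2 the AGO2 share rested on 83 reads, and the hairpin's share in KO AGO2 RNA, 92.9%, lay below that in some total RNA groups, such as 97.3% in KO cells on day 11. The reads of a hairpin are part of its host's feature, so host levels were not compared as separate measures. The strand used in counting is not given in the sources used here.

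Other hairpins with a non-canonical or intronic origin gave a mixed picture. Of a list of 7 names, 4 were in the table and 2 were tested. Mir1981, exactly an intron of Mosc2, rose from 21.4 RPM in day 9 total to 44.3 RPM in AGO2 RNA in control cells (log2 1.02, adjusted p = 0.000156) and from 26.3 to 63.1 RPM in KO cells (adjusted p = 3.28e-05). On day 25 Mir1981 was higher in KO cells by 0.61 (adjusted p = 0.0302), the opposite of Mir877, and in control cells it was lower than on day 1 (adjusted p = 7.26e-05), at 8.96 to 9.81 against 14.9 to 24.2 RPM, again opposite. Mir1983 was higher in AGO2 than in total RNA by 0.75 in control and 1.51 in KO cells, and was lower in KO cells on day 25 by 0.60 (adjusted p = 0.00063). Mir1982 was near 1 RPM and Mir344 was at 0.

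A search of the annotation for miRNA features with both ends within 10 bases of an intron's ends found 8, among them Mir877, Mir1224 and Mir702. Of the 5 others 2 were tested, Mir1981 and AC150744.1, an exact intron of Arhgef17. AC150744.1 was lower in KO cells on day 25 by 1.32 on the log2 scale (adjusted p = 0.000834), at 1.28 to 6.43 against 7.17 to 13.4 RPM, and was not called between AGO2 and total RNA in either genotype.

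The genes of the pathway were seen only as fragments of 20 to 24 nt, which measure neither mRNA nor protein. Of 12 such features 7 were tested over the days, and on days 1, 3, 11 and 25 none differed between genotypes. Fragments of Dgcr8 were lower in KO cells on day 6 by 0.80 (limma, adjusted p = 0.00862), when 23% of all features were called. Fragments of Eif2c1, which encodes Argonaute 1, were higher on days 6 and 9 by 0.95 and 1.12 (adjusted p = 0.00474 and 0.00104). Between AGO2 and total RNA 3 were tested, and those of Dgcr8 were higher, by 1.18 in control and 1.39 in KO cells, while those of Eif2c1 and Xpo1 were lower by 2.81 or more. In AGO2 RNA Dgcr8 averaged 54.0 RPM in control and 51.2 RPM in KO cells, against 2.07 and 2.41 RPM for Xpo5, the next highest. A hairpin inside a gene is counted with that gene, and where the Dgcr8 reads lie was not examined. The Dgcr8 values may therefore not reflect fragments of its mRNA.

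The miRNA features whose group means over the 12 time course groups were most like those of a member were named by Pearson's r on log2 RPM. For Mir877 they were Mir292, an ESC miRNA (r = 0.89), and Mir500 (r = 0.79). For Mir484 they were Mir1964 and Mir375 (both r = 0.84), for Mir320 Mir182 and Mir324 (both r = 0.81) and for Mir702 Mir185 (r = 0.60) and CT010508.1 (r = 0.59). The points share libraries, depth and scaling, and no test was made.

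In primordial germ cells, with 1 library a group and no test, Mir877 and Mir702 stood above their ESC levels. Mir877 was at 1129 RPM in E13.5 female, 790.5 in E13.5 male, 341 in E14.5 female and 368 in E14.5 male cells, each more than the highest of the 36 ESC total RNA libraries, 75.3 RPM. Mir702 was at 44.8, 139, 82.1 and 101 RPM in the same order, against at most 13.0 RPM in ESC total RNA. Mir320 was at 1131, 556, 376 and 383 RPM and Mir484 at 380, 459, 264 and 300 RPM, so Mir484 lay within the ESC range. Mir1224 had 22 reads in E13.5 female cells and 0 to 2 in the others. In 3 R1-suffixed libraries of germ cells the levels differed. Mir877 was at 270.4 RPM in E13.5 female, 33.2 RPM in E13.5 male and 861 RPM in E14.5 male cells, and Mir702 at 34.9, 0 and 117 RPM. The E13.5 values rest on few reads, with 2 of Mir877 and 0 of Mir702 in the male library, where 3 reads are 49.7 RPM. There Mir877 lay within its ESC range, and Mir702 at 0 did not. Features of miRNAs took 0.83% of that library and 11.8% of the E13.5 female one.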

How the data were processed

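Small RNA-seq was analysed from the deposited table of 83 libraries. Per the methods and, for versions, the submitters' processing notes in the labels, the authors trimmed reads with Trim Galore 0.3.5, mapped them with Bowtie2 2.2.9 to NCBIM37, kept 20 to 24 nt and counted in SeqMonk. The deposited values are RPKM, which the authors scaled by length and library total. RPM was recovered as RPKM times feature length over 1000, and reads from each library's smallest step. Features were matched by position to GENCODE vM1.

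Groups came from titles. The genotype tags contradict the titles of the AGO2, "none" and 30 R1-suffixed libraries, and tag germ cells as ESCs. The R1-suffixed libraries, in which nearly all read numbers were even, served as an alternative only. Tests used limma 3.58.1 in R 4.3.3 on log2(RPM + 1), with trimmed-mean scaling (library totals alone for AGO2 against total RNA), features of at least 10 RPM in 3 libraries, empirical Bayes with a mean trend and Benjamini-Hochberg adjustment over all features tested. Calls have an adjusted p under 0.05. Fold changes on the log2(RPM + 1) scale understate those of low features. The fit was tested on simulated data. As the table holds RPKM, no count model was the main test; voom was run on recovered reads. Intervals cover counting error only.

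Named were all 5 members, their hosts, the listed pathway genes, other hairpins and markers, intron-end miRNAs and, per tested member, the 2 miRNA features with the highest r. AC150744.1 and Mir1981 follow from these rules. Members and lists were chosen with earlier results of these data known.

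Same-numbered AGO2 libraries correlated in their deviations (r = 0.19 to 0.39 in all 4 pairs), and by this hint from the data the blocked AGO2 values are given. In the time course r was -0.07 to 0.05, so no shared deviation was seen. This cannot exclude a pairing, as counting error in low features could hide it.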

Additional observations from a re-analysis of the deposited data

Results flagged for a closer look

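One result was flagged because the effect of Dnmt1 loss differed between days by the interaction test, namely Mir484 on day 11 against day 1, at 0.57 on the log2 scale. No member's AGO2 group had a library far from its others, among 10 groups of 4 libraries looked at, where chance flags about 1 in 20.

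The others were flagged as signal outside the main comparisons, above 3 reads. In germ cells the highest levels were 1131.4 RPM for Mir320 and 1128.9 RPM for Mir877 in E13.5 females, 459.4 RPM for Mir484 and 139.0 RPM for Mir702 in E13.5 males, and 7.8 RPM for Mir1224 in E13.5 females. The libraries titled "none", which held 57155 and 9830 reads, contained 35 reads of Mir320, 43 of Mir484 and 10 of Mir877 in control cells and 10 of Mir320 and 5 of Mir484 in KO cells. In control cells that is 612 RPM of Mir320, 175.0 RPM of Mir877 and 752 RPM of Mir484, where the AGO2 libraries held 505 to 694, 170 to 365 and 1046 to 1613 RPM. Mir320 and Mir877 thus lay within their AGO2 ranges and Mir484 below its own. In KO cells, on the few reads of that library, Mir320 was at 1017 RPM, above its 4 AGO2 libraries (531 to 939 RPM), Mir484 at 509 RPM, below its own (1454 to 2893 RPM), and Mir877 at 102 RPM, on 1 read, below its own (145 to 390 RPM). Whether these libraries are the beads-only control of the pull-down is not given by the labels.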

How the results depend on the processing

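Of 404 log2 values under other settings, 373 kept their side of the threshold and, if called, their direction, as did 495 of 528 from leaving out 1 library. Among these 373 and 495 values, 18 and 54 that were called in neither fit changed sign. Of called values 2 changed sign. Mir320 in AGO2 against total RNA of control cells was -0.051 when scaled to miRNA reads, where AGO2 and total libraries have equal miRNA sums by construction, and Mir702 rose by 2.12 between control days 1 and 11 in the R1-suffixed libraries, so that 3 members were called there. The cause of the latter was not tested.

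The numbers of members called changed as follows, and the cause was not tested. On day 6, 0 were called with library totals, with a pseudocount of 0.1, without the filter and in the R1-suffixed libraries. On day 9, 1 was called with totals and with voom, and on day 25, 2 with totals. Averaged over days, 2 were called with totals, with voom and with the replicate block, and 0 over days 1 to 11 alone. The average also called 0 with R1-suffixed libraries on days 1 to 11 and the unsuffixed ones kept on day 25. For day 11 against day 1, 0 were called with totals, a pseudocount of 0.1, no filter, the replicate block or the R1-suffixed libraries. For control day 25 against day 1, 2 were called without the filter. Between AGO2 libraries, 2 were called with totals and 0 with median-ratio factors, without the filter, with voom or with averaged replicates. For AGO2 against total RNA of control cells, 2 were called when scaled to miRNA reads. For the difference between genotypes, 2 were called against all 6 days and 1, added after seeing the data, against day 25. Leaving out 1 library gave 0 to 1 on day 6, for day 11 against day 1 and for the genotype difference in AGO2 over total RNA, 1 to 2 on day 25, on average and for control day 25, and 0 to 2 between AGO2 libraries.

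In the time course, where same-numbered libraries showed no shared deviation, the replicate block changed 1 call of each of 2 contrasts. These were Mir320 on average (-0.15, adjusted p = 0.0276) and Mir484 for day 11 against day 1 (0.57, adjusted p = 0.055). Control days could not be compared with a block, which lies within days, nor day 25 in the R1-suffixed libraries. No other call changed than those given here and in the comparison of AGO2 libraries. Depth limits Mir702 and Mir1224, and day 25.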
